A study of Schizosaccharomyces pombe with 6 samples.

Results

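The 10 genes described here make the membrane and the wall of the fission yeast spore: spo3, spo4, spo6, mde10, bgs2, isp3, meu14, spn5, spn6 and spn7. They were chosen by name, as middle meiotic sporulation genes and meiotic septins, and each matched 1 of the 6988 counted features of Schizosaccharomyces pombe. Poly(A)+ RNA was sequenced from a strain in which pla1, encoding the enzyme that adds poly(A) tails in the nucleus, carries the change Y86D in its active site, and from a strain with wild-type pla1. Their genotypes are h- pla1-Y86D::kanMX and h- pla1-WT::kanMX, so both are of mating type h- and carry the kanMX drug marker at pla1. Both were grown to log phase in YES, a rich medium, and each gave 3 libraries that the series calls replicate experiments. Whether these were separate cultures is not stated, and the p-values then rest on a spread between libraries that may be technical. The labels give 1 strain name per genotype, AGP259 for pla1-Y86D and AGP257 for pla1-WT, so each genotype is represented by a single strain. The series title presents Y86D as a suppressor of a growth defect that raises mRNAs targeted by Mmi1 and MTREC. The comparison of the strains asks what the mutation does to levels of poly(A)+ mRNA.

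Sporulation in fission yeast follows meiosis in a diploid cell starved of nitrogen, and haploid cells growing in rich medium do not make spores. During the second meiotic division a forespore membrane grows from each spindle pole body and closes around a nucleus, and the spore wall is then laid down inside it. Most genes of this stage are switched on by Mei4, a forkhead transcription factor of meiosis. Mmi1 is a YTH-family RNA-binding protein that marks early meiotic mRNAs, the mei4 mRNA among them, for decay by the nuclear exosome in growing cells, with the help of the MTREC complex. It recognises repeats of the core TNAAAC, written here in DNA letters.

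The known binding letters of Mei4 and Mmi1 were looked for in the 10 genes, since the first names the activator of this group and the second the decay pathway in the title. The Mei4 core GTAAACA was searched on both strands of a window running from 250 bases before to 50 bases after the annotated transcript start, 300 bases in all. It was present in 7 of the 10 windows, those of meu14, isp3, spn7, spo4, spo6, spn5 and mde10, and it was not among the letters of the bgs2, spo3 and spn6 windows. Of the windows of all 4996 protein-coding genes tested, 16.6% held it. The match nearest the start is shown for each of the 7, in capitals, with its flanks in lower case. All 7 read on the gene's own strand, and the first base of the core lies at -13, -51, -26, -98, -56, -171 and -117 relative to the start, in the order printed.
meu14: tctgaaacGTAAACAatcaacat
isp3: catccactGTAAACAaaaaaaaa
spn7: attaagcaGTAAACAaacaaacc
spo4: ttggcgaaGTAAACAaacaaaca
spo6: atatttgaGTAAACAaacaaaat
spn5: ctttgaaaGTAAACAcaacaaac
mde10: acgcgaatGTAAACAaacaaacg
In these printed matches the core is followed by the bases aaca in spn7, spo4, spo6 and mde10, and by other bases in the remaining 3. The meu14 window holds 3 matches, and those of isp3, spn5, spo6 and spo4 hold 2 each. Among the matches not printed, that of meu14 at -186, on the opposite strand, is also followed by aaca. A match is a run of letters and was not tested as a binding site. All sequences are from the RefSeq genome and annotation of assembly ASM294v3.

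The Mmi1 core TNAAAC, with any base at N, was counted on the sense strand of each annotated transcript. It cannot overlap GTAAACA on one strand, because TNAAAC needs a T where that core has its G. The median was 2.06 cores per kb over the 10 genes, against 1.64 over the 4996 transcripts tested and 6.30 over 15 meiotic mRNAs listed as carrying Mmi1 sites. The densest gene of the 10 was spn7, with 8 cores in 1565 bases or 5.11 per kb, a density reached by 1.66% of the 4996 transcripts. The genes spn5, spn6 and spo6 had 3.76, 3.69 and 3.53 cores per kb, and spo4, bgs2, spo3, mde10, meu14 and isp3 had between 2.14 and 0.85. Up to 3 cores fell within 100 bases in spn7, where 3.90% of transcripts have as many, and at most 2 did so in the other 9 genes. The stretch of 30 bases with most cores is shown, with the cores in capitals, for the 3 genes of this group that have 2 or more cores in such a stretch, for the 2 with the fewest cores per kb, and, for comparison, for mei4 and spo5. Mmi1 itself is known to act on the mRNAs of both comparison genes.
spn7: acTAAAACTAAAACtaatcaaTTAAACtgt
spn5: TTAAACaagatgaggttccaaacTCAAACg
spo6: cttttTCAAACtactgtgTAAAACcttccc
meu14: accagtaactagTGAAACtactgaacatgt
isp3: gtctaactttagTAAAACttttcagcttta
mei4: tagtTTAAACtcaaatattgTTAAACcccc
spo5: tacTCAAACTTAAACcaacaTAAAACctgt

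The 6 libraries held from 17594840 to 21849845 counts. Levels are given in CPM, in which each library's counts are scaled to the same fixed total after TMM adjustment, and a positive log2 fold change means a higher level in pla1-Y86D. A gene was called when its adjusted p was below 0.05 in edgeR's quasi-likelihood test, with Benjamini-Hochberg adjustment over the 6267 features tested. The pla1 mRNA was at 47.4 ± 0.85 CPM in pla1-Y86D and 36.6 ± 0.96 CPM in pla1-WT (SD, n = 3 each), and a point mutation leaves no mark in these counts that would check the labels.

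All 10 genes were detected in every library, and 8 of the 10 were called, against 81.2% of all features tested. Of these, 6 were higher in pla1-Y86D (background 40.1%) and 2 were lower (background 41.1%). A call was thus about as frequent here as anywhere in the transcriptome. The median log2 fold change was 0.29 for the 10 genes and -0.005 for all features tested, and the median size without regard to sign was 0.40 against 0.31. Called increases of at least 2-fold, seen in 9.02% of all features, were found for meu14 and spo4, and none of the 10 fell that far (background 2.38%). The libraries of the strains did not overlap in 8 of the 10 genes, the same 8 that were called, against 81.8% of all features. The gene spo4 passed the filter on low counts only through its pla1-Y86D libraries, so its presence among the genes tested already favours a higher value there. The 10 genes together came to 212.5 ± 2.6 CPM in pla1-Y86D and 195.4 ± 5.1 CPM in pla1-WT (SD, n = 3 each), so their increases and decreases partly offset each other in the sum. In bulk RNA, a change in the number of cells that express a gene and a change in RNA per cell cannot be told apart. The RNA was selected by its poly(A) tails, which the mutated enzyme adds. A change in tailing and a change in RNA amount therefore cannot be told apart either, and rises and falls here are those of poly(A)+ RNA.

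**Figure D1:**
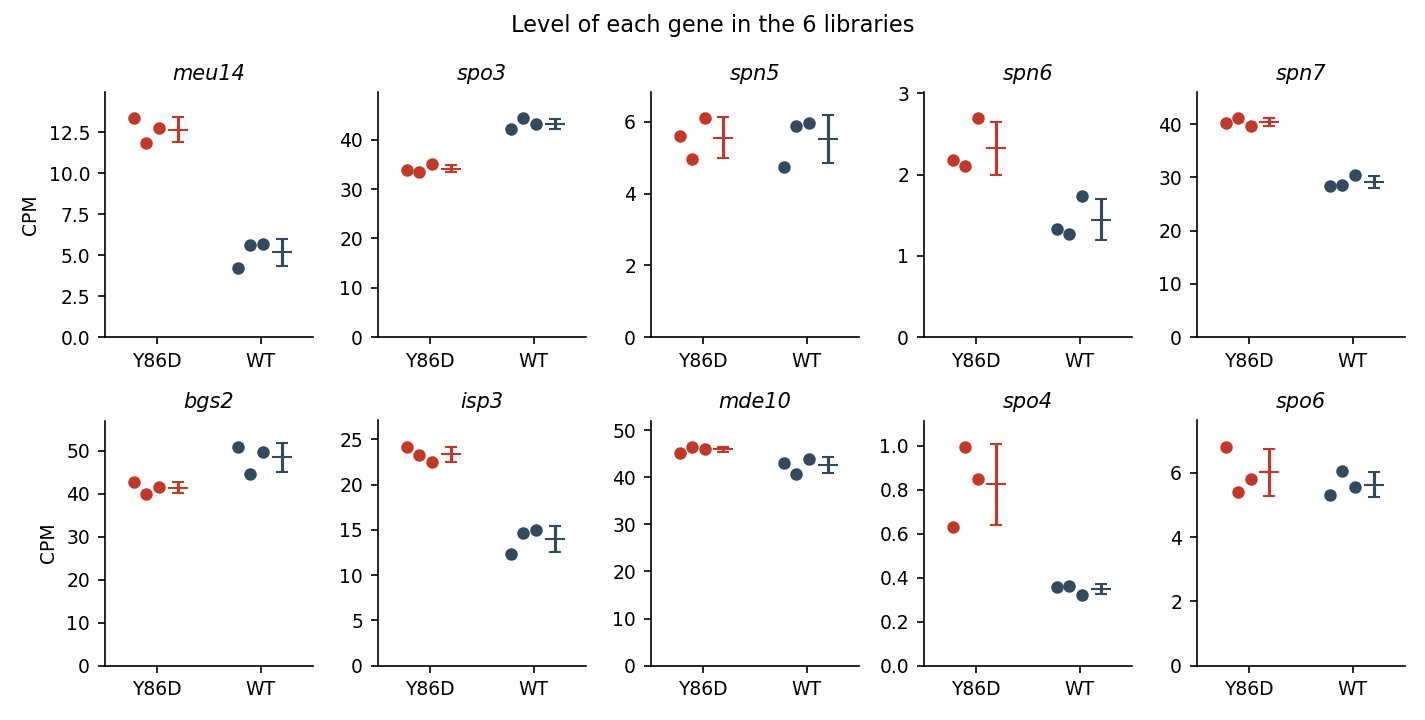
Level of each of the 10 genes in CPM (vertical axis, from 0) in the 3 pla1-Y86D libraries (left, red) and the 3 pla1-WT libraries (right, blue), with the mean and SD of each strain beside the points. The strains separate upward in meu14, isp3, spn7, spn6, spo4 and, by a small margin, mde10, downward in spo3 and bgs2, and overlap in spn5 and spo6.

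The forespore membrane genes moved in opposite directions. Meu14 is a protein of the leading edge of the growing forespore membrane, where it keeps the opening in shape. Its mRNA (SPBC1347.03) was at 13.3, 11.8 and 12.7 CPM in pla1-Y86D, against 4.24, 5.65 and 5.68 CPM in pla1-WT. The lowest mutant library was far above the highest wild-type one. The log2 fold change was 1.27 (SE 0.11, edgeR's adjusted p = 7.99e-13) and was above that of spo4 (1.24). That order turned without pla1-WT replicate 1 (meu14 at 1.15, spo4 at 1.26) and without pla1-Y86D replicate 1 (1.24 and 1.39). Spo3 is a membrane protein needed to assemble the forespore membrane. The spo3 mRNA (SPAC607.10) was at 34.0, 33.5 and 35.0 CPM in pla1-Y86D and at 42.2, 44.3 and 43.1 CPM in pla1-WT, with no overlap. It fell by 0.34 on the log2 scale (SE 0.046, edgeR's adjusted p = 4.22e-08).

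Septins are GTP-binding proteins that assemble into filaments and rings, and Spn5, Spn6 and Spn7 are meiotic members that gather at the forespore membrane and guide its growth. Of the 3 genes, spn7 and spn6 rose and spn5 was not called. The spn7 mRNA (SPBC19F8.01c) was at 40.3, 41.1 and 39.6 CPM in pla1-Y86D and 28.3, 28.6 and 30.4 CPM in pla1-WT (log2 fold change 0.47, SE 0.049, edgeR's adjusted p = 1.51e-10). The spn6 mRNA (SPCC188.12) was much scarcer, with counts of 38, 38 and 57 in pla1-Y86D against 26, 28 and 38 in pla1-WT. These correspond to 2.18, 2.102 and 2.70 CPM in pla1-Y86D and to 1.33, 1.27 and 1.74 CPM in pla1-WT, which do not overlap, and the log2 fold change was 0.69 (SE 0.21, edgeR's adjusted p = 0.00376). The spn5 mRNA (SPAC24C9.15c) was at 5.61, 4.98 and 6.10 CPM in pla1-Y86D and at 4.75, 5.87 and 5.96 CPM in pla1-WT. Its libraries were interleaved, and its log2 fold change of 0.01 had a 95% interval from -0.25 to 0.27 (edgeR's adjusted p = 0.949).

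Growing cells use other septins, Spn1 to Spn4, which form a ring at the division site, and Spn2 is known to join the meiotic complex as well. These mRNAs were higher per length than those of the meiotic septins, at 50.7 to 78.2 CPM per kb of annotated transcript in pla1-WT, and they too went different ways. Of the 4, spn1 (log2 fold change 0.43) and spn4 (0.17) rose and spn3 fell (-0.21), while spn2 had a value of 0.06 (edgeR's adjusted p = 0.0622). The median of the 4 was 0.12.

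Of the 3 spore wall genes, isp3 changed most. Isp3 is a structural protein of the outer surface of the spore. The isp3 mRNA (SPAC1F8.05) was at 24.2, 23.3 and 22.5 CPM in pla1-Y86D, against 12.4, 14.7 and 14.9 CPM in pla1-WT. The strains were well apart, with a log2 fold change of 0.73 (SE 0.076, edgeR's adjusted p = 1e-10). Bgs2 is the catalytic subunit of the beta-glucan synthase of the spore wall. The bgs2 mRNA (SPAC24C9.07c) was at 42.7, 40.0 and 41.6 CPM in pla1-Y86D and 50.9, 44.7 and 49.7 CPM in pla1-WT. It fell by 0.22 on the log2 scale (SE 0.048, edgeR's adjusted p = 8.05e-05), with a narrow gap between the strains.

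Mde10 is a metalloprotease of the ADAM family that is needed for a normal spore envelope. The mde10 mRNA (SPAC17A5.04c) was at 45.2, 46.5 and 46.0 CPM in pla1-Y86D and 43.0, 40.6 and 43.9 CPM in pla1-WT. Its log2 fold change of 0.11 (SE 0.044, edgeR's adjusted p = 0.0215) was the smallest of those called. The call depends on the fit: the log2 fold change was 0.08 without pla1-WT replicate 2 (edgeR's adjusted p = 0.124), 0.10 without pla1-Y86D replicate 2 (0.0593) and 0.11 without pla1-Y86D replicate 3 (0.0514). In the authors' deposited table its adjusted p was 0.0886, and the other 9 genes had the same direction there and were on the same side of 0.05 as here.

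The glucan synthases of growing cells gave a frame for bgs2. Bgs1, Bgs3 and Bgs4 are its closest relatives and Ags1 makes alpha-glucan, all in the wall or septum of dividing cells. Of these 4 genes, 3 fell, with log2 fold changes of -0.59 for ags1, -0.48 for bgs3 and -0.18 for bgs4, and bgs1 was at 0.04 (edgeR's adjusted p = 0.116). The median was -0.33, so the decrease of bgs2 was of a size also found among the genes of vegetative walls.

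Spo4 and Spo6 form a meiotic kinase, Spo4 as the catalytic subunit and Spo6 as its regulator, that is related to the Cdc7-Dbf4 kinase of DNA replication and is needed for progress through the second meiotic division and for sporulation. The spo4 mRNA (SPBC21C3.18) was the least counted of the 10, with 11, 18 and 18 counts in pla1-Y86D and 7, 8 and 7 counts in pla1-WT. It rose with a log2 fold change of 1.24 (SE 0.39, edgeR's adjusted p = 0.00406). The 95% interval ran from 0.45 to 2.03, so its size is poorly known. The spo6 mRNA (SPBC1778.04) was at 6.82, 5.42 and 5.82 CPM in pla1-Y86D and 5.31, 6.05 and 5.55 CPM in pla1-WT, with overlapping libraries. Its log2 fold change was 0.09 (95% interval -0.16 to 0.34, edgeR's adjusted p = 0.508). The corresponding genes of growing cells were hsk1, the kinase, which fell by 0.46 on the log2 scale (edgeR's adjusted p = 1.07e-12), and dfp1, its regulator, at -0.05 (edgeR's adjusted p = 0.0941).

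**Figure D2:**
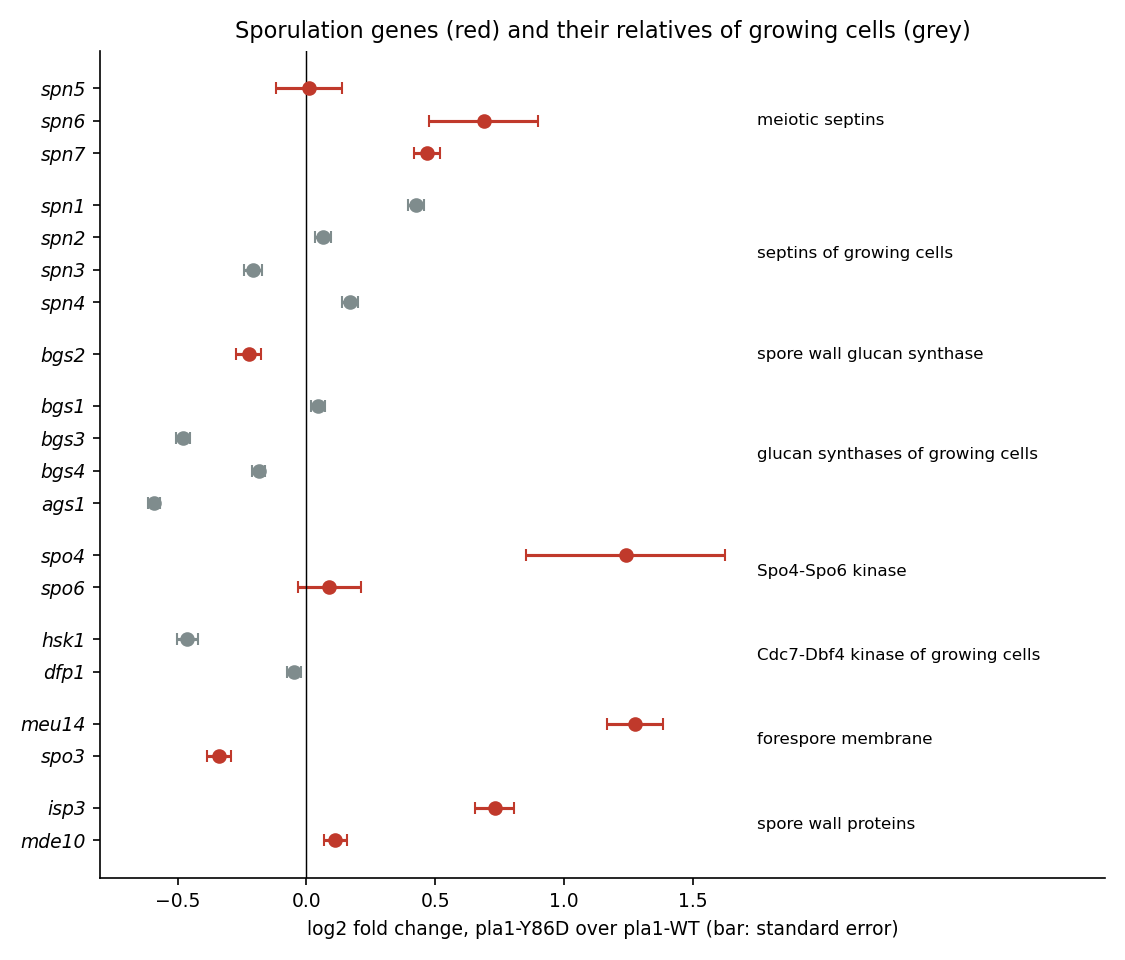
Log2 fold change with its standard error (horizontal axis) of the 10 sporulation genes (red) and of their relatives in growing cells (grey), grouped by function. Within the septins and the kinase subunits the red points lie apart from each other, with spn5 and spo6 near 0 and spn7, spn6 and spo4 to the right.

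Per length, all 10 mRNAs were in the lower part of the transcriptome in both strains. In pla1-Y86D the order was mde10 (27.3 CPM per kb of annotated transcript), spn7 (25.8), isp3 (19.8), meu14 (11.2), spo3 (7.80), bgs2 (6.82), spo6 (3.54), spn5 (3.49), spn6 (1.22) and spo4 (0.59). In pla1-WT it was mde10 (25.3), spn7 (18.6), isp3 (11.9), spo3 (9.87), bgs2 (7.98), meu14 (4.62), spn5 (3.47), spo6 (3.31), spn6 (0.76) and spo4 (0.25). The libraries of spo6 and spn5 overlapped in both strains, and all other neighbours in these orders had ranges that did not. The order is the same in the strains except that meu14 stood 2 places higher in pla1-Y86D, above spo3 and bgs2, and that spo6 and spn5 changed places within their overlap. The median gene of the 10 was above 7.63% of the tested protein-coding genes in pla1-Y86D and above 6.66% in pla1-WT.

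Features on the opposite strand overlap most of these genes in the reference annotation, which bears on how their counts are read. Counted opposite-strand features overlap 8 of the 10, all but mde10 and spn5, and they form 9 pairs. The genes spo4, spo6 and meu14 lie wholly within such a feature and still received counts, where reads counted without regard to strand would be ambiguous. The annotation also holds 1 opposite-strand feature at mde10 and 1 at bgs2 that were not counted. Which strand setting the counting used is not given in the sources used here.

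The contrast was greatest at spo4, which is spanned by spo4-antisense-1 (SPNCRNA.1644). That RNA had 859, 848 and 1013 counts in pla1-Y86D and 1298, 1447 and 1427 counts in pla1-WT. It fell by 0.46 on the log2 scale (SE 0.039, edgeR's adjusted p = 9.72e-13), while spo4 rose. For every 100 antisense counts there were 1.73 counts on spo4 in pla1-Y86D and 0.527 in pla1-WT. What part of the few spo4 counts came from reads of the abundant opposite strand was not tested.

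At meu14 the gene rose and no change was called for the antisense RNA. The RNA meu14-antisense-1 (SPNCRNA.1663) was at a log2 fold change of 0.05 (SE 0.065, edgeR's adjusted p = 0.508), at 22.6 ± 0.37 CPM in pla1-Y86D and 21.9 ± 1.6 CPM in pla1-WT (SD, n = 3 each). There were 55.8 counts on meu14 per 100 on its antisense RNA in pla1-Y86D and 23.8 in pla1-WT. At isp3 both strands rose: isp3-antisense-1 (SPNCRNA.606) was at 5.61 ± 0.27 CPM in pla1-Y86D and 2.47 ± 0.63 CPM in pla1-WT, a log2 fold change of 1.18 (SE 0.16, edgeR's adjusted p = 3.18e-08).

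At bgs2 both strands fell by a similar amount, -0.22 for the gene and -0.21 for bgs2-antisense-1 (SPNCRNA.880, edgeR's adjusted p = 0.000419), which had 130 and 131 gene counts per 100 antisense counts in pla1-Y86D and pla1-WT. The RNA SPNCRNA.879, which also overlaps bgs2 from the opposite strand, rose by 1.00 (edgeR's adjusted p = 0.000694). The protein-coding partners fell: lam2, opposite spo6, by 0.19 on the log2 scale (edgeR's adjusted p = 3.87e-06) and dcr1, the Dicer gene opposite spn6, by 0.23 (1.47e-05). Per 100 counts on lam2 there were 7.06 on spo6 in pla1-Y86D and 5.84 in pla1-WT. Per 100 counts on dcr1 there were 5.89 on spn6 in pla1-Y86D and 3.1 in pla1-WT. What part of the spo6 and spn6 counts came from reads of the opposite strand was not tested either. At spn7 the antisense RNA (SPNCRNA.1588) had a log2 fold change of -0.30 (edgeR's adjusted p = 0.0446). It was called in 5 of 13 alternatives. The call was lost without pla1-WT replicate 1 (0.138), pla1-WT replicate 2 (0.0645), pla1-Y86D replicate 2 (0.163) or pla1-Y86D replicate 3 (0.0979), those values being edgeR's adjusted p-values. It was also lost with DESeq2 (adjusted p = 0.137), with limma-voom (0.0589) and with upper-quartile scaling (0.0608). On the same strand, spn7 overlaps ppk24, a kinase gene that rose by 0.58 (SE 0.064, edgeR's adjusted p = 4.85e-10), so reads in the shared stretch are uncertain for both. The spo3 partners, SPNCRNA.186 and spo3-antisense-1, had at most 12 counts in any library.

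Across the 9 opposite-strand pairs, gene and partner were both called in the same direction in 2 (isp3 and bgs2 with their antisense RNAs) and in opposite directions in 4. Of all features tested, 81.2% were called, 40.1% higher and 41.1% lower, so pairs called in either combination are common by background alone. The 4 include the pair at spn7, whose antisense call was lost in most alternatives. In the other 3, at least 1 of the partners was not called.

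**Figure D3:**
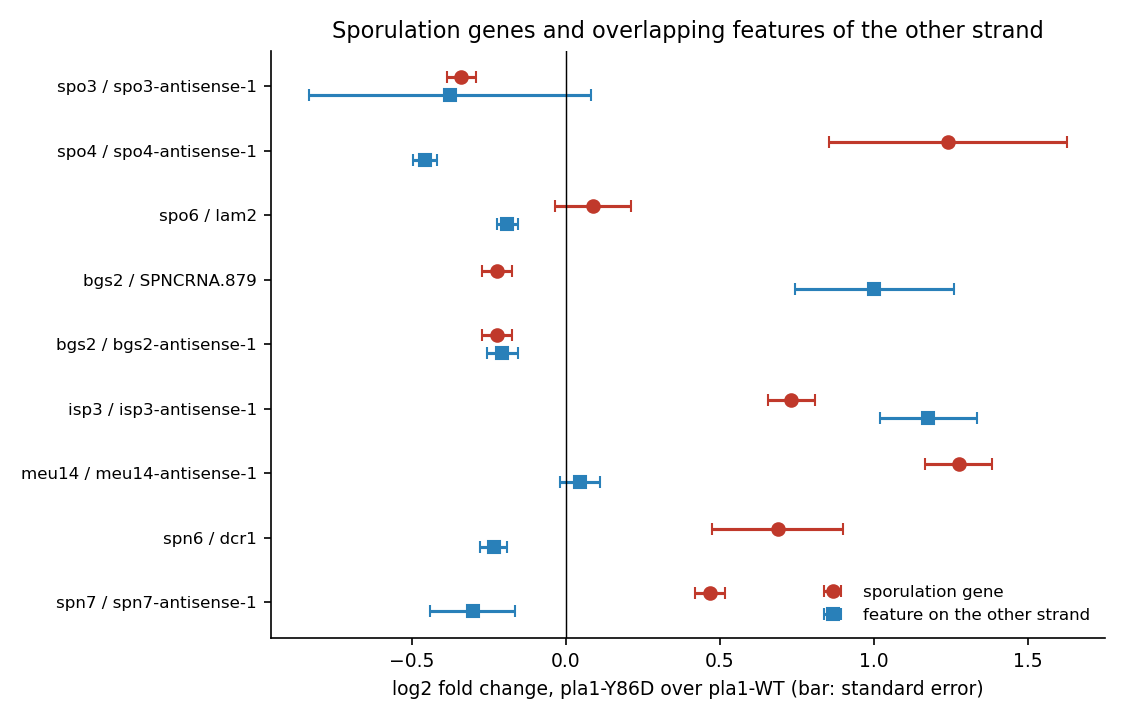
Log2 fold change with its standard error (horizontal axis) of each sporulation gene (red circles) and of the feature that overlaps it on the opposite strand (blue squares), 1 pair per row. The symbols lie on opposite sides of 0 for spo4, spo6, spn6, spn7 and bgs2 with SPNCRNA.879, and on one side for spo3, isp3, meu14 and bgs2 with bgs2-antisense-1.

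Other genes of the same processes were read from lists. Of all features tested, 81.2% were called, 40.1% higher and 41.1% lower, so most genes of any list are called by background alone. The spindle pole body plaque from which the forespore membrane starts is built from Spo2, Spo13 and Spo15. Of these, spo2 rose by 0.35 and spo15, which encodes the coiled-coil scaffold, had a log2 fold change of -0.44 (edgeR's adjusted p = 2.86e-16). The remaining gene, spo13, was at -0.46 without a call (edgeR's adjusted p = 0.0583). Among 10 other genes of forespore membrane assembly and vesicle traffic, 1 rose, 7 fell and 2 were not called, with a median of -0.13. Of the 7 decreases, 4 were called in all 15 fits, while spo9 was called in 9, pik3 in 11 and dms1 in 13 of them, and the libraries of spo9 and pik3 overlapped between the strains. The gene that rose was mug28, for an RNA-binding protein needed for forespore membrane formation. It was at 9.75 ± 0.31 CPM in pla1-Y86D and 2.13 ± 0.32 CPM in pla1-WT (SD, n = 3 each), a log2 fold change of 2.20 (SE 0.13, edgeR's adjusted p = 9.53e-17). Those that fell included spo14 (-0.48), which acts in export from the endoplasmic reticulum, the SNARE gene sec9 (-0.28) and spo7 (-0.23). Several genes of this list also serve secretion in growing cells.

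Among 11 other genes of spore wall synthesis and ascus breakdown, 3 rose (background 40.1%), 3 fell (41.1%) and 5 were not called. The median was -0.002. The chitin synthase gene chs1 (log2 fold change 0.39) and gas4 (0.38), for a glucan-remodelling enzyme of the spore wall, rose. The alpha-glucan synthase homologue mok14 (-0.32) and agn2 (-0.32), whose glucanase opens the ascus wall, fell. None of these changes reached 2-fold.

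Regulators of middle meiosis and of the second division formed a further list. Of 13 listed, 11 were tested. Of these, 10 rose (background 40.1%), 5 of those at least 2-fold (background 9.02%), and 1, pit1, fell (-0.74). The median was 0.99. Among the increases below 2-fold, the call of crp79 held in 13 of the 15 fits. Of the 5, cuf2, mug27 and atf21 passed the filter on low counts only through pla1-Y86D, which favours higher values there. The 2 genes that did not pass it, mde3 and mfr1, were at 0.93 and -0.16 without the filter, neither called, and the median of all 13 was then 0.93. The mei4 mRNA was at 121.7 ± 5.3 CPM in pla1-Y86D and 17.0 ± 0.95 CPM in pla1-WT (SD, n = 3 each), a log2 fold change of 2.83 (SE 0.047). The values were 2.86 for cuf2, a meiotic transcriptional regulator, 2.62 for spo5, an RNA-binding protein of the second division, and 2.20 for mug27, a meiotic kinase gene. The cuf2 value rests on few reads, at 0.163 ± 0.13 CPM in pla1-WT. Leaving out pla1-WT replicate 1 gave 3.61, and leaving out pla1-WT replicate 3 gave 2.41. Of 4 other genes named mde, for Mei4-dependent, and not placed in another list, 3 rose at least 2-fold (background 9.02%). These were mde7 (1.82), mde2 (1.62) and mde6 (1.20). The remaining gene, mde4, was at 0.01 without a call, and mde7 passed the filter only through pla1-Y86D. The median of those 4 was 1.41. It leaves out mde3 and, from the spore wall list, mde5 (0.18, edgeR's adjusted p = 0.424). Also left out, as genes of the group described here, are mde10 (0.11) and spn5 (0.01, not called), whose other name is mde9. The median thus covers only a part of the genes named mde.

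The 15 meiotic mRNAs listed with Mmi1 sites, mei4 and spo5 of the regulator list among them, all rose. Of the 15, 13 did so by 2-fold or more (background 9.02%). Their median was 1.56, with the highest values for rec8 (2.85), mei4 (2.83), mug10 (2.68) and spo5 (2.62). This class is named in the series title as raised, so its direction is not independent evidence. The 10 sporulation genes are set out by density in the plot of core motifs. The 4 densest, spn7, spn5, spn6 and spo6, had log2 fold changes of 0.47, 0.01, 0.69 and 0.09. The other 6, in falling order of density, were spo4 (1.24), bgs2 (-0.22), spo3 (-0.34), mde10 (0.11), meu14 (1.27) and isp3 (0.73).

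**Figure D4:**
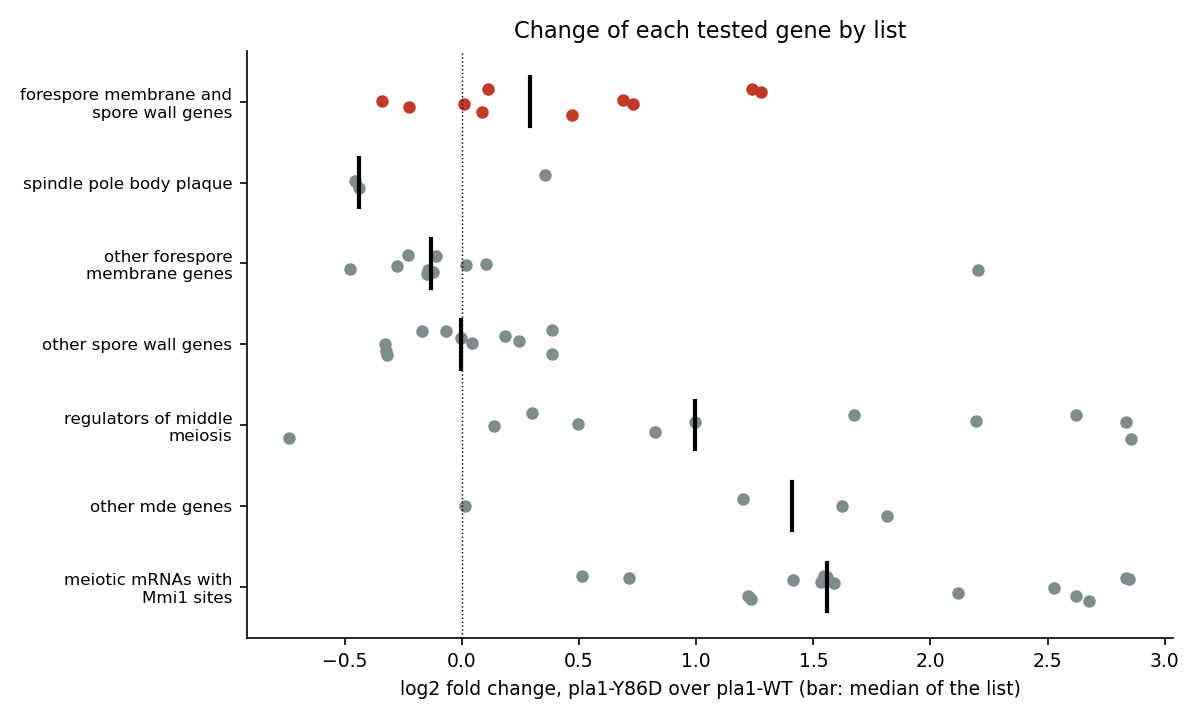
Log2 fold change (horizontal axis) of every tested gene of the sporulation group (red) and of 6 related lists (grey), with the median of each list as a black bar. The sporulation group has its median at 0.29. That lies above the lists of structural genes, near or below 0. It lies below those of regulators, other mde genes and Mmi1 targets, at 0.99, 1.41 and 1.56. The genes mei4 and spo5 are in both the regulator list and the Mmi1 list.

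**Figure D5:**
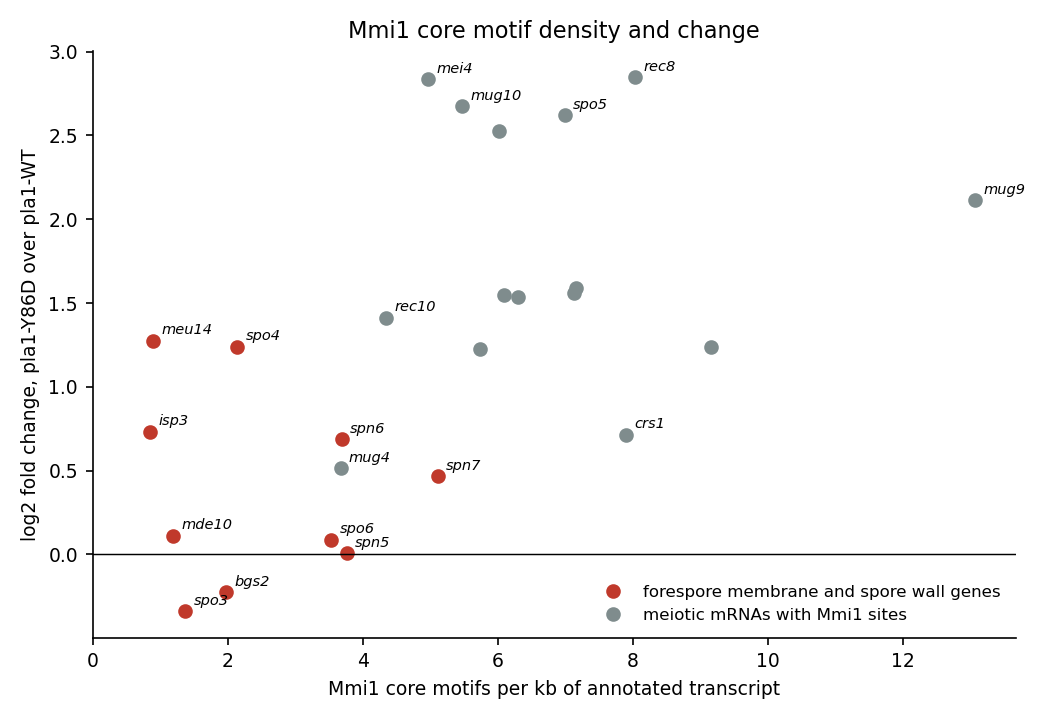
Number of Mmi1 core motifs per kb of annotated transcript (horizontal axis) against the log2 fold change (vertical axis) for the 10 sporulation genes (red) and 15 meiotic mRNAs with Mmi1 sites (grey). Each point is a gene, and the red points lie at 5.11 cores per kb or fewer, with meu14 and isp3 at the lowest densities.

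Markers of cell type were read beside these results. Genes of M cells, the type of h- strains, were detected, at a sum of 94.2 to 99.3 CPM in pla1-Y86D and 99.7 to 107.5 CPM in pla1-WT. Of 6 such genes, 2 were higher (background 40.1%) and 2 lower (41.1%). The log2 fold change was 0.80 for mam2, the P-factor receptor gene, 0.28 for sxa2, -0.26 for mam1 and -0.95 for mfm2, an M-factor pheromone gene. The other M-factor genes were not called: mfm1 was at 0.0006 (edgeR's adjusted p = 0.999) and mfm3 at -0.21 (0.44). Of 7 genes listed for P cells and zygotes, 5 were higher (background 40.1%) and 2 lower (41.1%). Their sum was 498 to 513 CPM in pla1-Y86D and 469 to 492 CPM in pla1-WT, most of it sxa1. That gene was at 421.5 CPM in pla1-Y86D and 401.9 CPM in pla1-WT. Both strains are h-, so the sum cannot be read as a level of P cells. Whether each listed gene marks P cells or zygotes in growing cultures was not tested. The genes map2 (log2 fold change 0.58), map4 (0.39), map1 (0.32) and sxa1 (0.07) rose. The call of sxa1 held in 12 of the 15 fits. The gene map3, for the M-factor receptor of P cells, fell by 0.69 (edgeR's adjusted p = 2.42e-08), and fus1, for a formin of cell fusion, fell by 0.23 (edgeR's adjusted p = 0.000412). The gene mei3, which triggers meiosis in zygotes, was at 1.61 ± 0.41 CPM in pla1-Y86D and 0.475 ± 0.095 CPM in pla1-WT (SD, n = 3 each), a log2 fold change of 1.78 (edgeR's adjusted p = 3.7e-06), and it passed the filter only through pla1-Y86D. The part of these markers in the changes of the 10 genes was not tested.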

How the data were processed

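RNA from 3 pla1-Y86D and 3 pla1-WT libraries was measured by stranded, paired-end poly(A)+ sequencing, per the labels' protocols. The deposited count table holds raw read counts for 6988 features; build ASM294v2 and the tools HTSeq 0.10.0, HISAT2 2.1.0, SAMtools, DESeq and DESeq2 are named in the submitters' processing notes. Neither the annotation release nor the strand setting of the counting is stated there. The second table is the authors' DESeq2 comparison, per the file headers. Its signal columns are the authors' means of counts divided by size factors, its log2 columns the authors' fold change and standard error, its Wald statistic a score, and the p-value columns were used as deposited.

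Counts were fitted with edgeR 4.0.16 in R 4.3.3, using filterByExpr (minimum count 10), TMM scaling and the quasi-likelihood test (robust, strain only). The SE is the fold change divided by the square root of its F. The steps were also run on simulated counts in which most features did not change. In these data 81.2% of features were called, so that run does not test the steps under such a setting. All 6 libraries entered the fit, at 17594840 to 21849845 counts. Pairs of libraries of a strain differed beyond sampling noise, with chi-square values of 1.63 to 4.77 per degree of freedom. DESeq2 1.42.0 and limma-voom (limma 3.58.1), other scalings, no filter, protein-coding features only, a replicate block and leaving out each library were alternatives. The 10 genes and the 11 other lists were chosen with earlier results of these data known. All 10 genes are described; from the other lists up to 4 called genes with the largest change are named, with all relatives in growing cells and all overlapping features. List names vps34, meu5, slk1, mcp5 and mug1 were matched as pik3, crp79, mug27, num1 and jnm1, and mde9 is spn5.

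Of the features, 6836 (97.8%) matched the RefSeq annotation of ASM294v3 by identifier. The files' build differs, so the annotation served for names, overlaps, neighbours, lengths and sequences, and no coordinates are given.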

Additional observations from a re-analysis of the deposited data

How the results depend on the processing

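Of the 14 alternatives, all called between 7 and 8 of the 10 genes, 5 or 6 of them higher and 2 lower. The number of called features lay between 4111 of 4996 tested (protein-coding features only) and 5162 of 6686 tested (no filter on low counts). These numbers differ partly because the number tested differs. The calls and directions of meu14, isp3, spn7, spn6, spo4, spo3 and bgs2 held in all 14. The gene mde10 lost its call with total counts only (log2 fold change 0.089, adjusted p = 0.0682) and with DESeq2 (0.12, adjusted p = 0.0724), and ranged from 0.079 to 0.13 when libraries were left out in turn; the cause was not tested. The uncalled spn5 changed sign with total counts only (-0.012) and ranged from -0.084 to 0.082 over the libraries left out, and the uncalled spo6 ranged from -0.0050 to 0.15.

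With a replicate block 5057 of 6267 features and 8 of the 10 genes were called (mde10 at 0.11, adjusted p = 0.0265), and no call among the 10 changed. Libraries sharing a number did not deviate together (correlations -0.0694 to -0.0287 over 3 pairs). Whether the numbers mark a shared culture or preparation cannot be settled from correlations over all features, which include counting noise. Depth limits spo4, with 7 or 8 counts per pla1-WT library, and the small features opposite spo3. Scaling to library totals hides any change that most mRNAs have in common.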

Other observations

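The nearest counted neighbours of the 10 genes were read in the order of the reference annotation. Those tested were all called except btn1, upstream of spo3, and otu1, downstream of spn5, where 81.2% of all features were called. Some of these neighbours are given here. Downstream of spo4 on the same strand, rtc3 was at 115.9 ± 0.92 CPM in pla1-Y86D and 47.5 ± 4.2 CPM in pla1-WT (SD, n = 3 each), a log2 fold change of 1.29 (edgeR's adjusted p = 4.06e-21). Around isp3 the neighbours on both sides rose, SPAC1F8.04c-antisense-1 by 0.89 and fta5-antisense-1 by 0.90. Upstream of meu14, the more abundant ani1 had a log2 fold change of -0.22, and downstream tim54-antisense-1 rose by 1.05. The antisense RNA upstream of mde10, SPAC17A5.05c-antisense-1, rose by 1.76, and the mRNA of nud3, upstream of spn7, had a log2 fold change of -0.61.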
